A study of Homo sapiens with 6 samples.

Results

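The genes described here were the heat shock proteins, their BAG (Bcl-2-associated athanogene) co-chaperones and the heat shock transcription factors, chosen by their gene symbols alone and compared between UM-Cis and UMSCC1. The symbol patterns found 25 of the 14812 genes that could be named on the arrays, measured by 39 of 44629 probe sets. They comprised 12 members of the HSP70 and HSP110 families, 3 small heat shock proteins, 5 BAG proteins, 3 heat shock factors, the mitochondrial chaperonin *HSPD1*, and *HSPBAP1*, which shares the HSPB prefix but encodes a protein associated with HSPB1 and not a heat shock protein. The same patterns also covered J-domain proteins, HSP90 and the cytosolic chaperonin subunits, but none of these was among the genes that could be named, so J-domain chaperones were not analysed here. *HSPA5*, *HSPA8*, *HSPE1*, *BAG6* and *HSF2* were not analysed here either, and 1 pseudogene was left out.

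UMSCC1 is an established human oral squamous cell carcinoma line, and UM-Cis is the cisplatin-resistant line that the study raised from it by stepwise exposure to rising cisplatin. Each line was measured on 3 Affymetrix Human Gene 2.0 ST arrays, with no cisplatin in the culture from which RNA was taken. UM-Cis is 1 derivative line, so a difference from UMSCC1 is a difference between these lines and not between resistant and sensitive cells in general. Nothing in the labels says that the 3 arrays of a line came from separate cultures, so the p-values reflect the spread among these 6 arrays alone, and that spread may be technical.

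Heat shock proteins hold unfolded or misfolded proteins and help them to fold. HSP70 proteins bind and release short hydrophobic stretches in a cycle driven by ATP, J-domain proteins deliver the clients, and HSP110 and BAG proteins release the nucleotide so that the cycle can start again. The small heat shock proteins hold unfolding clients without ATP. In stressed cells the heat shock factor HSF1 binds inverted repeats of nGAAn, the heat shock element, in the promoters of many of these genes.

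The values were log2 signals from 0.66 to 13.6, with array medians of 4.74 to 4.82, and a difference is given as UM-Cis minus UMSCC1 on this log2 scale. The first principal component (51.5% of the variance) separated the lines. The second (28.6%) set the array without a number of each line apart from the arrays numbered 1 and 2, so the differences of the 6 members that moved are also given without it. In the list of squamous and other epithelial markers, *EPCAM* (10.30 in UM-Cis and 10.56 in UMSCC1) and *SFN* (11.11 and 11.28) were bright in both lines. *KRT5* was lower in UM-Cis (4.68 ± 0.75 against 6.61 ± 0.20, SD, n = 3, adjusted p = 0.0091, limma). The desmosomal *DSC3* (-0.60, adjusted p = 0.093) and *DSG3* (0.32, 0.302) did not pass. Of the 6 differences in this list, 5 were negative and 1 was positive. The mean level of the 6 measured markers of that list of 10 ran from 7.42 to 7.60 in UM-Cis and from 8.0 to 8.19 in UMSCC1, with 1 of 6 lower and 0 higher (2 lower when same-labelled arrays were paired, with *KRT14* at an adjusted p of 0.00797). The part of this in the results below was not tested. The fibroblast genes *DCN* (2.22 and 2.07) and *LUM* (3.01 and 2.91) lay under the array medians in both lines and *THY1* (5.44 and 5.32) above them, with 0 of 3 measured fibroblast markers past the test, and 0 of 2 endothelial markers passed. Of 3 measured leukocyte markers (6 listed), *CD68*, a lysosomal protein that other cells also make, was higher in UM-Cis (10.06 and 8.65, adjusted p = 0.0115). *CD14* was lower (4.30 and 4.83, adjusted p = 0.049). It lay near or under the array medians, and 0 of the 6 fits without 1 array kept its call. The list means were 5.84 to 6.18 in UM-Cis and 5.63 to 5.97 in UMSCC1. In RNA from whole cultures, fewer cells of a type and less RNA per cell cannot be told apart.

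The promoters are shown for the 2 heat-inducible genes that fell side by side, *HSPA1A* and *HSPA1B*, for *HSPH1*, which fell most, for *HSPB1*, which rose, and for *HSPA6*, whose window held a 3-unit match near the start. Each is the 250 bases before the start of the gene in RefSeq (GRCh38.p14), read 5′ to 3′ along the gene's strand. Capitals mark the fixed letters of a heat shock element of 2 units (GAANNTTC or TTCNNGAA, each its own reverse complement) or of 3 units (GAANNTTCNNGAA or TTCNNGAANNTTC, reverse complements of each other). The windows lie at chr6:31815293-31815542 on the plus strand for *HSPA1A*, chr6:31827488-31827737 on the plus strand for *HSPA1B*, chr13:31162389-31162638 on the minus strand for *HSPH1*, chr7:76302423-76302672 on the plus strand for *HSPB1* and chr1:161524290-161524539 on the plus strand for *HSPA6*.
HSPA1A: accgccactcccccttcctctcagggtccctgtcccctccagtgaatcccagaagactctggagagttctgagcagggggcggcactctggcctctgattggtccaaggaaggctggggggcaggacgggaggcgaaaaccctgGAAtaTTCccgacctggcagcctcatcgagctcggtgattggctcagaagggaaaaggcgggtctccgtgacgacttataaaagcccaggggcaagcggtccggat
HSPA1B: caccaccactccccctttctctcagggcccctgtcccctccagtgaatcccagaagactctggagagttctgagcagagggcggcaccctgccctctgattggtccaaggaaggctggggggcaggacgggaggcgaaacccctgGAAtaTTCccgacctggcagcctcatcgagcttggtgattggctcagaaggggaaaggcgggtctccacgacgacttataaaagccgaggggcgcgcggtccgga
HSPH1: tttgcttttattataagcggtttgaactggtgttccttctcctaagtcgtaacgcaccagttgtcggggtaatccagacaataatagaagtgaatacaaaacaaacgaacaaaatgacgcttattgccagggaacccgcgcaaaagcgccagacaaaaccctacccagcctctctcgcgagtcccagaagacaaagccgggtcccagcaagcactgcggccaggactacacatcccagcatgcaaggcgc
HSPB1: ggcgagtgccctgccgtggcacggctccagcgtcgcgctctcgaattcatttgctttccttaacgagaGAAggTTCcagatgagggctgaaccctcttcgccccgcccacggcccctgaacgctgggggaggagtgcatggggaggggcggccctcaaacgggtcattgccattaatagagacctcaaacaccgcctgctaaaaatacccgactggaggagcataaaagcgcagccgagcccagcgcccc
HSPA6: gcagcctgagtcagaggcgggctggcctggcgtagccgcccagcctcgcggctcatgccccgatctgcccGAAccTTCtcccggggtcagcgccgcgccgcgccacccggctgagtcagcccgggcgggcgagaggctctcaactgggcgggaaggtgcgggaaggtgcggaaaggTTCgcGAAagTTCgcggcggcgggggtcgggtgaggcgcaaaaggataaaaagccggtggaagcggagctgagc

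The upstream stretches of *HSPA1A* and *HSPA1B* shared 235 aligned bases, an identity of 94%, and held the same 2-unit match, at -106 to -99 and at -105 to -98 from the start. *HSPB1*, which moved the opposite way, also held a 2-unit match, at -182 to -175. *HSPA6* held a 3-unit match at -74 to -62 and a further 2-unit match at -180 to -173, and no match to either form was found in the window of *HSPH1*. The full windows of 300 bases run 50 bases past the start. In these, 11 of the 21 members with a window held the 2-unit form (52.4%). The shares were 16.2% of 27305 genes with a window and 13.5% of all windows. Among the 11, *HSPA1A* and *HSPA1L* share 1 match in overlapping windows, and *HSPA1B* holds it in nearly the same sequence. These genes are therefore not separate counts. The 3-unit form, which contains the 2-unit form, was in the windows of *HSPA6* and *HSPD1*, where 2 overlapping matches ran from -245 to -228 (2 of 21 members, 9.52%) and of 0.608% of genes (0.49% of windows). A match is a description of the letters and not a bound site, and no match says only that these letters are not in this window.

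Does the chaperone system differ between the resistant line and its parent? Of the 25 members, 1 rose in UM-Cis (*HSPB1*) and 5 fell (*HSPH1*, *HSPA4L*, *HSPA1A*, *HSPA1B* and *BAG2*) at an adjusted p under 0.05 (limma, two-sided, adjusted over all 14812 genes), while 19 did not pass. Among all genes tested, 5.91% were called higher and 4.60% lower. At an unadjusted p under 0.05, 1 member was higher and 9 were lower, against 12.7% and 12.0% of all genes. The median difference of the members was -0.20 against -0.04 for all genes, and 19 of 25 differences were negative (76%, against 55.1% of all genes). The 3 arrays of one line lay wholly above the 3 of the other for 2 members that were higher and 10 that were lower in UM-Cis, where the shares over all genes were 14.7% and 15.7%. With *HSPA1A* and *HSPA1B* counted as 1 gene, 4 of 24 fell and the median was -0.18. At a 2-fold change with an unadjusted p under 0.05, 1 member was higher and 2 were lower, against 2.44% and 1.70% of all genes.

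**Figure D1:**
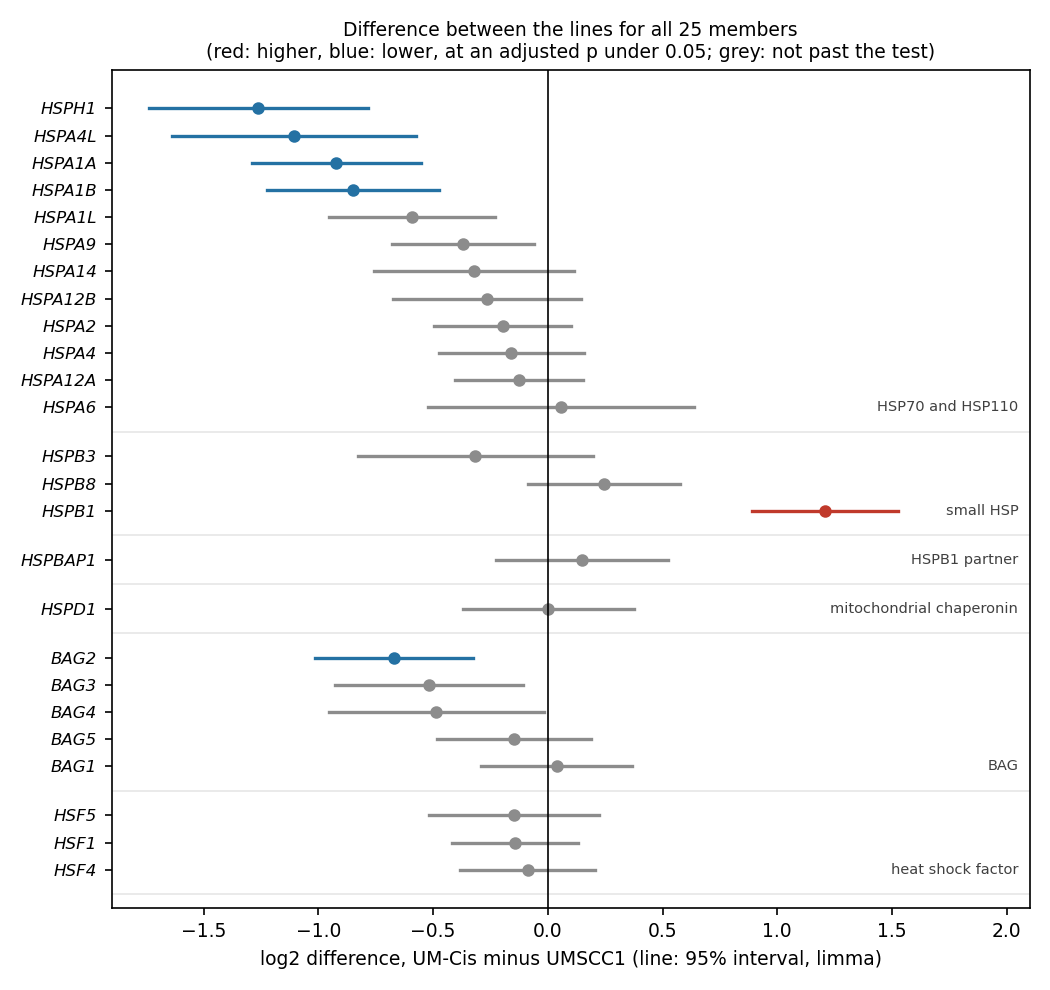
Each point is the log2 difference of UM-Cis minus UMSCC1 for 1 of the 25 members, grouped by family, and each line is its 95% interval from limma (n = 3 arrays a line). *HSPB1* (red, 1.21) is the only member past the test above 0, and the 5 members past the test below 0 (blue) run from -1.26 for *HSPH1* to -0.67 for *BAG2*.

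The rise was in the transcript of *HSPB1*, which encodes the small heat shock protein HSP27, a holdase that also binds actin filaments. Its signals were 9.51, 9.45 and 9.30 on the UM-Cis arrays (unnumbered, 1 and 2) and 8.39, 8.09 and 8.16 on the UMSCC1 arrays. Every UM-Cis array was above every UMSCC1 array. The means were 9.42 ± 0.11 and 8.21 ± 0.16 (SD, n = 3), a difference of 1.21 (SE 0.14, 95% interval 0.89 to 1.53, 2.31-fold, adjusted p = 0.00175, limma). It passed the test under all 17 alternative settings, with differences from 1.15 to 1.44 and adjusted p from 0.000142 to 0.0285. *HSPB8*, whose product works with BAG3, read 4.31 ± 0.21 and 4.06 ± 0.02, and *HSPB3*, known from muscle, read 3.34 ± 0.18 and 3.66 ± 0.43. Both lay under the array median on all 6 arrays, and neither passed the test (adjusted p = 0.35 and 0.443). The HSPB1-associated *HSPBAP1* differed by 0.15 (adjusted p = 0.642).

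Among the 12 HSP70 and HSP110 genes, 4 fell and 0 rose in limma, with 6 of 12 at an unadjusted p under 0.05, all lower (12.0% of all genes were lower at that threshold). Of the 12 differences 11 were negative, with a median of -0.34 and a range of -1.26 to 0.06. The largest decrease was in *HSPH1*, which encodes HSP105, an HSP110 protein that releases nucleotide from HSP70. Its signals were 9.59, 9.15 and 9.40 in UM-Cis and 10.22, 10.81 and 10.89 in UMSCC1. The groups did not overlap, and the unnumbered UMSCC1 array was the lowest of its line. The means were 9.38 ± 0.22 and 10.64 ± 0.37 (SD, n = 3), so that the signal fell by 1.26 (SE 0.21, 95% interval -1.74 to -0.78, 2.40-fold, adjusted p = 0.00758). Each of the 6 fits without 1 array kept the call, the highest adjusted p being 0.0400.

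*HSPA4L*, a second HSP110 gene, read 7.04, 6.31 and 6.16 in UM-Cis and 7.43, 7.66 and 7.74 in UMSCC1. The groups did not overlap, but the unnumbered UM-Cis array lay closer to the parental arrays than to the other arrays of its own line. The means were 6.50 ± 0.47 and 7.61 ± 0.16, and the signal fell by 1.11 (SE 0.23, 95% interval -1.64 to -0.57, 2.15-fold, adjusted p = 0.0202). The call was lost without array 1 or 2 of either line (adjusted p up to 0.0899). *HSPA4*, the third HSP110 gene measured, read 9.03 ± 0.17 and 9.19 ± 0.06, a difference of -0.16 that did not pass (adjusted p = 0.539).

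The inducible HSP70 genes *HSPA1A* and *HSPA1B* encode proteins that are almost the same. *HSPA1A* read 10.43, 10.00 and 10.20 in UM-Cis and 10.94, 11.20 and 11.26 in UMSCC1. *HSPA1B* read 10.34, 10.07 and 10.34 in UM-Cis and 10.85, 11.13 and 11.32 in UMSCC1. In both genes every UM-Cis array was below every UMSCC1 array. *HSPA1A* fell by 0.92 (means 10.21 ± 0.22 and 11.13 ± 0.17, SE 0.16, 95% interval -1.29 to -0.55, 1.89-fold, adjusted p = 0.00947), and *HSPA1B* fell by 0.85 (means 10.25 ± 0.15 and 11.10 ± 0.24, SE 0.16, 95% interval -1.22 to -0.47, 1.80-fold, adjusted p = 0.0145). Their 10 probe sets gave differences of -1.0 to -0.85, but the 5 of *HSPA1A* held only 3 different sets of values (5 of 5 for *HSPA1B*). The brightest probe sets of the genes differed by 0.07 to 0.14 on a given array. Because probes can bind both transcripts, the 2 genes cannot be told apart here and count as 1 observation. Without any 1 of the 6 arrays *HSPA1A* still passed (highest adjusted p 0.0494), whereas *HSPA1B* lost the call without UM-Cis array 1 or UMSCC1 array 1 or 2 (adjusted p up to 0.0675).

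**Figure D2:**
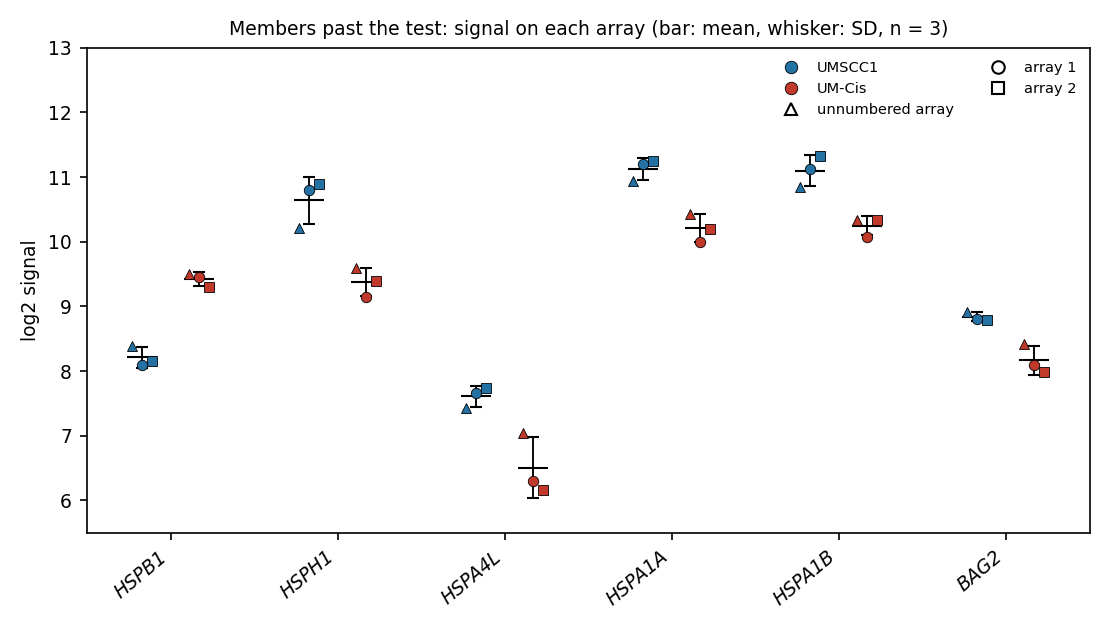
Points are the log2 signals of the 6 members past the test on each array (triangle, unnumbered array; circle, array 1; square, array 2), with UMSCC1 in blue and UM-Cis in red; bars are means and whiskers are SD (n = 3). The lines do not overlap in any of the 6, with *HSPB1* above UMSCC1 in UM-Cis and the other 5 below it.

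*HSPA1L*, whose product is abundant in testis, lies beside *HSPA1A* on chromosome 6, and its window overlaps that of *HSPA1A* on the opposite strand and shares the 2-unit match. It read 5.90, 5.96 and 5.76 in UM-Cis and 6.21, 6.70 and 6.48 in UMSCC1. The groups did not overlap. The difference of -0.59 (SE 0.16, 95% interval -0.95 to -0.23) had an adjusted p of 0.0503 in limma. It was 0.0284 with the replicate block, a fit that pairs the same-labelled arrays of the lines. The 5 probe sets gave differences of -0.59 to -0.44. The adjusted p was 0.0711 with these averaged and 0.104 with all probe sets tested. Across the alternatives the adjusted p of *HSPA1L* ran from 0.00571 (array weights) to 0.553 (equal median of control genes). The sequence shared with *HSPA1A* and *HSPA1B* limits how far its signal can be assigned to it. *HSPA9*, the mitochondrial HSP70 mortalin, read 10.92 ± 0.15 and 11.29 ± 0.08 (difference -0.37, 95% interval -0.68 to -0.06, adjusted p = 0.133), with no overlap of the groups.

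*HSPA6*, an HSP70 gene that is nearly silent until cells are stressed, was dim in both lines, at 5.17, 5.20 and 4.65 in UM-Cis and 5.34, 5.07 and 4.44 in UMSCC1. The arrays of the 2 lines overlapped fully. Its difference was 0.06 (95% interval -0.52 to 0.64, adjusted p = 0.919), an interval wide enough to hold a change in either direction. The remaining HSP70 genes did not pass: the ribosome-associated *HSPA14* differed by -0.32 (adjusted p = 0.352), *HSPA12B* by -0.27 (0.416), *HSPA2*, known for its role in spermatogenesis, by -0.20 (0.409) and *HSPA12A* by -0.13 (0.584). *HSPD1*, which encodes the mitochondrial chaperonin HSP60, differed by 0.00 (9.14 ± 0.28 and 9.14 ± 0.04, 95% interval -0.37 to 0.37, adjusted p = 0.995).

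The BAG proteins bind HSP70 and release its nucleotide and client. Of the 5 measured, 1 fell and 0 rose in limma, with 3 of 5 at an unadjusted p under 0.05 (24.7% of all genes, either way) and a median difference of -0.49. *BAG2*, which holds back the ubiquitin ligase CHIP on HSP70 clients, read 8.42, 8.09 and 7.99 in UM-Cis and 8.92, 8.81 and 8.79 in UMSCC1. The groups did not overlap, and the signal fell by 0.67 (means 8.17 ± 0.22 and 8.84 ± 0.07, SE 0.15, 95% interval -1.01 to -0.33, 1.59-fold, adjusted p = 0.0262). Of the 6 fits without 1 array, 1 kept the call (adjusted p up to 0.104), and it was lost with all probe sets tested (0.0605).

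*BAG3*, a stress-induced partner of the small heat shock proteins in selective autophagy, read 7.12, 6.97 and 7.14 in UM-Cis and 7.22, 7.79 and 7.77 in UMSCC1. The groups did not overlap, but the unnumbered UMSCC1 array lay next to the UM-Cis arrays. The difference was -0.52 (SE 0.18, adjusted p = 0.113), and -0.72 over the numbered arrays alone (adjusted p = 0.0113). *BAG4*, which binds death receptors, read 7.19, 6.61 and 6.53 in UM-Cis and 7.50, 7.10 and 7.19 in UMSCC1, and its groups overlapped. Its difference of -0.49 (SE 0.20) had an adjusted p of 0.186, and of 0.0385 with the replicate block. *BAG1*, a co-chaperone that also binds BCL2, differed by 0.04 (adjusted p = 0.907), and *BAG5* by -0.15 (0.602).

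Of the 3 heat shock factors, 0 passed the test in limma, and 0 had an unadjusted p under 0.05. *HSF1*, the main factor of the heat shock response, read 7.62, 7.61 and 7.69 in UM-Cis and 7.73, 7.78 and 7.84 in UMSCC1. The arrays of the lines did not overlap, yet the difference was only -0.14 (means 7.64 ± 0.04 and 7.78 ± 0.06, 95% interval -0.42 to 0.13, adjusted p = 0.518). *HSF4*, which acts in the lens, differed by -0.09 (adjusted p = 0.74), with a second probe set at -0.36. *HSF5*, which is active in the testis, differed by -0.15 (0.642) and was among the 3 members whose mean lay under the median of all probe sets, with *HSPB3* and *HSPB8*. The arrays measure the transcript, and the activity of HSF1 is set largely on the protein, which was not measured.

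The 3 pairs of same-labelled arrays differed in size for the members that fell. In *HSPH1* the decrease was -1.66 between arrays 1, -1.49 between arrays 2 and -0.63 between the unnumbered arrays. In *HSPA4L* it was -1.35, -1.58 and -0.39, and in *HSPA1A* -1.20, -1.05 and -0.51. Of the 9 members that were lower at an unadjusted p under 0.05, 9 had their smallest decrease in the unnumbered pair, against 42.6% of the 1780 genes of that kind, although the HSP70 genes beside *HSPA1A* share sequence and are not independent of it. The increase of *HSPB1* was 1.36, 1.15 and 1.11, also smallest in the unnumbered pair. With the numbered arrays alone, the difference was -1.58 for *HSPH1*, -1.47 for *HSPA4L*, -1.13 for *HSPA1A*, -1.02 for *HSPA1B*, -0.76 for *BAG2* and 1.25 for *HSPB1*, and all 6 passed the test (adjusted p up to 0.00820). Over all 25 members the median difference was -0.29 (arrays 1), -0.21 (arrays 2) and -0.18 (unnumbered arrays), with 19, 20 and 18 of 25 negative. With the replicate block, 7 members were lower and 1 higher, where 8.40% and 9.79% of all genes were called.

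**Figure D3:**
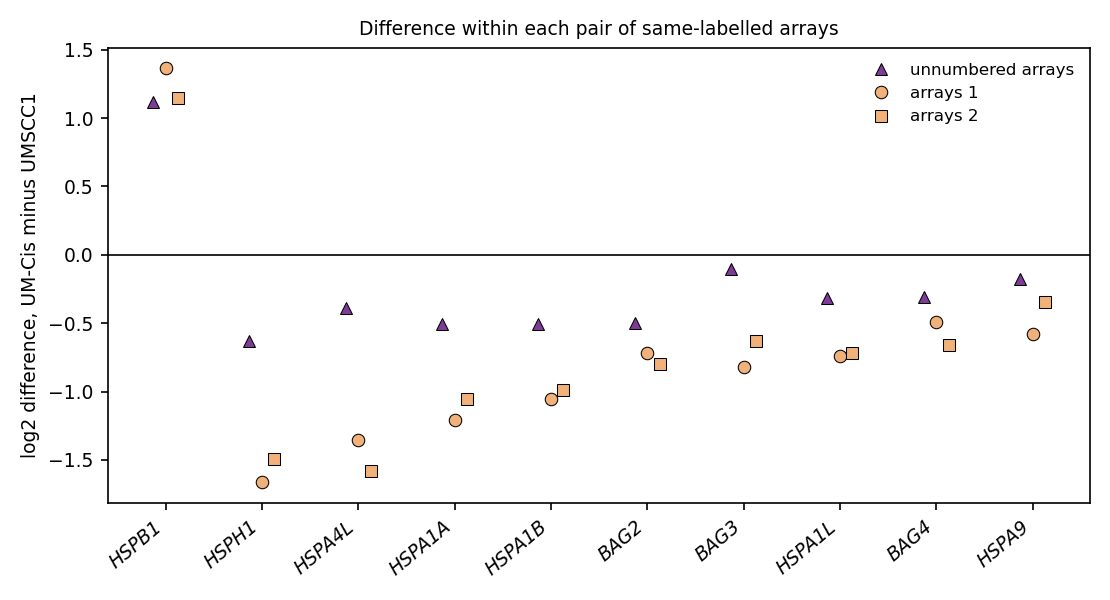
Points are the log2 difference of UM-Cis minus UMSCC1 within each pair of same-labelled arrays (purple triangle, unnumbered; orange circle, arrays 1; orange square, arrays 2) for the 10 members with an unadjusted p under 0.05. All points of *HSPB1* lie above 0, those of the other 9 genes lie below it, and in each of the 10 the triangle lies closest to 0, for example -0.63 against -1.66 and -1.49 in *HSPH1*.

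The decreases depended on the scale. The 6 control genes measured (15 listed) themselves differed by -0.53 to 0.56. Of these 0 passed the test in limma and 3 had an unadjusted p under 0.05 (24.7% of all genes). In other fits *HPRT1* was lower with the replicate block (-0.53, adjusted p = 0.0251), and *PPIA* was lower in the methods' t-test (-0.36, 0.0247). When each array was shifted so that the control genes had the same median, every difference moved by the same amount. Each array had its own shift, so the spread among the arrays of a line changed too. The adjusted p on this scale reflects both, and their parts were not tested. The median of all genes moved from -0.04 to 0.20, and that of the members moved from -0.20 to 0.04 and so changed sign. In limma 0 of 25 members were lower on this scale (4 lower and 1 higher at an unadjusted p under 0.05). *HSPH1* then differed by -1.02 (adjusted p = 0.0535) and *HSPA4L* by -0.87 (0.0617). In the methods' t-test, 0 of 25 members were lower after adjustment (8 lower and 1 higher unadjusted), while *HSPB1* passed.

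Among genes that work with these chaperones, calls were made in both directions. Of 15 measured co-chaperones and cofactors (27 listed), 1 was higher and 2 were lower (5.91% and 4.60% of all genes). The median difference was -0.06, and 5 of the 15 had an unadjusted p under 0.05 in limma (24.7% of all genes). *TOMM34*, a cytosolic partner of HSP70 and HSP90, fell by 0.98 (8.50 ± 0.14 and 9.47 ± 0.15, adjusted p = 0.0049), and *HYOU1*, the HSP110 protein of the endoplasmic reticulum, fell by 0.94 (7.91 ± 0.22 and 8.85 ± 0.04, adjusted p = 0.00612). *HSCB*, a mitochondrial J-type co-chaperone of iron-sulphur cluster transfer whose symbol lies outside the patterns, was higher by 0.71 (adjusted p = 0.0222). Of 14 chaperonin partners (17 listed), 2 were higher (5.91% of all genes) and 0 lower, with 2 at an unadjusted p under 0.05 (24.7%). They were *MKKS*, by 0.60 (0.0191), and *BBS10*, by 0.51 (0.038), both parts of the chaperonin-like complex that assembles the BBSome. With the control-gene scale *TOMM34* (adjusted p = 0.0721), *HYOU1* (0.106) and *BBS10* (0.0863) did not pass.

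Of 16 genes of endoplasmic reticulum stress (25 listed), 1 was lower and 1 higher (4.60% and 5.91% of all genes), with a median difference of -0.11. At an unadjusted p under 0.05 there were 8, in both directions (24.7% of all genes). Of the 16 differences 12 were negative (75%, against 55.1% of all genes). The groups did not overlap for 2 that were higher and 6 that were lower, where the shares over all genes were 14.7% and 15.7%. The lectin chaperone *CALR* fell by 0.89 (11.01 ± 0.08 and 11.90 ± 0.11, adjusted p = 0.00453, and 0.156 with the control-gene scale), and the stress-induced repressor *ATF3* rose by 1.03 (6.80 ± 0.44 and 5.77 ± 0.26, adjusted p = 0.0292). *ATF4* (-0.06, adjusted p = 0.821) and *XBP1* (-0.12, 0.695), transcription factors of the unfolded protein response, did not pass. Of 8 other heat-inducible genes (15 listed), 4 were higher and 0 lower in limma (5.91% and 4.60% of all genes), with a median of 0.33. At an unadjusted p under 0.05 there were 5 (24.7% of all genes), the 4 called higher and *EGR1*. *EGR1* was lower in UM-Cis (-0.77, adjusted p = 0.122). This list shared *ATF3* with the stress list and *CHORDC1* (-0.17, adjusted p = 0.673) with the co-chaperones. The AP-1 subunit *JUN* rose by 1.42 (9.60 ± 0.34 and 8.18 ± 0.41, adjusted p = 0.00919), *IER5*, whose product acts on HSF1, by 0.78 (8.50 ± 0.09 and 7.73 ± 0.06, 0.00651) and the haem oxygenase *HMOX1* by 0.48 (0.0417, and 0.107 with the control-gene scale), and the 4th was *ATF3*. Of 8 genes of disaggregation and mitochondrial proteostasis (11 listed), 0 passed in limma, with 4 at an unadjusted p under 0.05 (24.7% of all genes) and a median of -0.24. With the replicate block 3 of these 8 were lower, the disaggregase *CLPB* (-0.65, adjusted p = 0.0119) and the mitochondrial proteases *AFG3L2* (-0.50, 0.0248) and *YME1L1* (-0.46, 0.0326). The block also added *CDC37L1* (0.54, 0.0241), *FKBP5* (-0.56, 0.0365) and *SESN2* (0.60, 0.0389) in the other lists. In the methods' t-test *JUN* (adjusted p = 0.101), *ATF3* (0.158), *HSCB* (0.0868) and *HYOU1* (0.0501) did not pass. Of the 6 fits without 1 array, 0 kept the calls of *BBS10* and *HMOX1*, 2 those of *HSCB* and *MKKS*, and 3 that of *ATF3*.

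**Figure D4:**
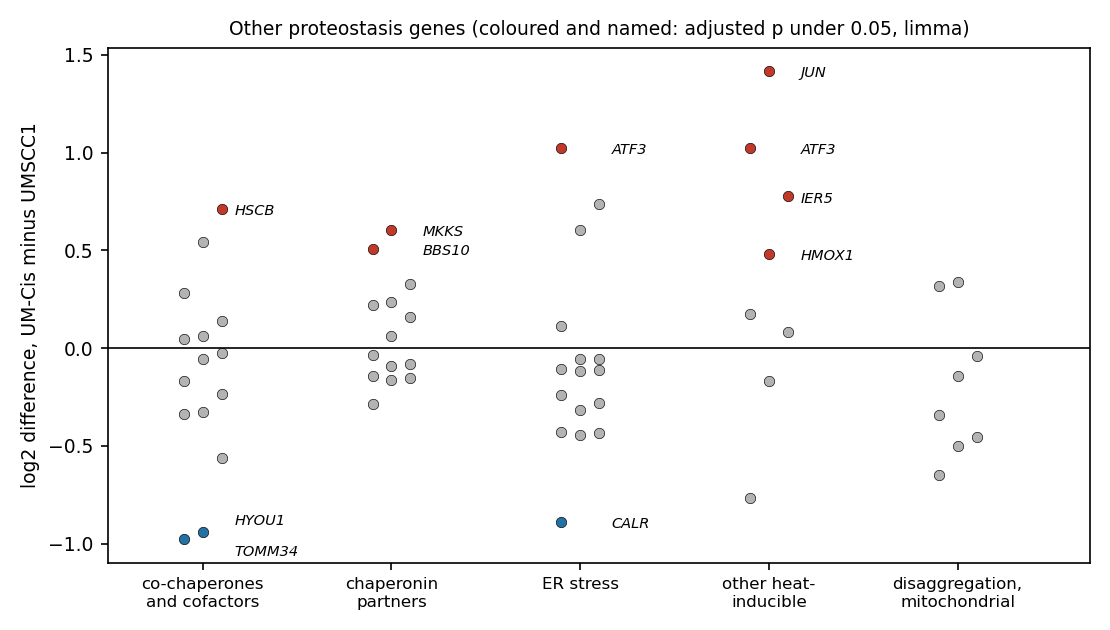
Points are the log2 difference of UM-Cis minus UMSCC1 for the measured genes of 5 lists of other proteostasis genes, coloured and named where the adjusted p from limma was under 0.05. The other heat-inducible genes include *JUN* at 1.42 and *IER5* at 0.78, while *TOMM34* (-0.98), *HYOU1* (-0.94) and *CALR* (-0.89) are the named genes below 0.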

How the data were processed

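UM-Cis and UMSCC1 were each measured on 3 arrays. The authors deposited log2 signals per probe set of Affymetrix Human Gene 2.0 ST arrays, with quantile normalization per their methods and RMA per the submitters' processing notes. The software version, annotation and filters were not given in the sources used here. No detection call was used, so signal over background is unknown, and precision is limited by the number of arrays.

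Probe sets were named through GEO's platform annotation (15835 with 1 symbol, 0 with several, 28794 with none here), and all gene identifiers were found in the RefSeq table of GRCh38.p14. For each of 14812 genes the brightest probe set was used (651 genes had several). The lines were compared with limma 3.58.1 (lmFit and eBayes, two-sided) in R 4.3.3, with Benjamini-Hochberg adjustment over all genes and a threshold of 0.05. The code was tested on simulated data. Alternatives were the methods' t-test, testing every probe set, averaging the probe sets of a gene, a trended and robust prior, array weights, quantile normalization, scaling to control genes, leaving out dim probe sets, the replicate block and each array left out. The numbered arrays alone and the unnumbered array as a batch term were added after seeing the data.

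Named were all members past the test, all HSP70, HSP110, chaperonin, BAG and heat shock factor members, the brightest and most different small heat shock proteins, and list genes past the test. Others (*HSPBAP1*, *ATF4*, *XBP1*, *CHORDC1*, *EGR1*, *PPIA*, the list genes past the paired fit and the markers) were named after their values were seen. The members and lists were chosen with earlier results of these data known.

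In each line 1 array has no number and the others are numbered 1 and 2. After the group mean was taken off, arrays with equal labels correlated by 0.505 (unnumbered), 0.237 (1) and 0.357 (2). They were therefore treated as pairs, on the basis of the data. Arrays 1 and 2 of opposite lines correlated by 0.233 and 0.265, so the pairing sets mainly the unnumbered arrays apart. Promoter windows came from RefSeq (GRCh38.p14) and covered 21 of 25 members, without *HSPA14*, *HSPA12B*, *BAG4* and *HSF1*. Windows were searched and figures drawn in Python 3.11.15 (pandas 2.3.3, biopython 1.88, matplotlib 3.10.9).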

Additional observations from a re-analysis of the deposited data

How the results depend on the processing

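The count of members higher in UM-Cis was 1 under every alternative, and no difference that passed the test changed sign. The count of lower members was 5. It was 0 in the methods' t-test and 0 with an equal median of control genes, 9 with array weights, 8 with the numbered arrays alone and 8 with the unnumbered array as a batch term. With the paired fit (replicate block) it was 7, and *HSPA1L* (adjusted p = 0.0284) and *BAG4* (0.0385) joined the calls with none lost. Leaving out 1 array gave 2 to 6 lower members. At 2-fold with an unadjusted p under 0.05 it was 2. The median difference of the members, -0.20, became 0.040 with an equal median of control genes and -0.27 with the numbered arrays alone. The control-gene scale moves the difference of every gene by the same amount, and the median of all genes went from -0.04 to 0.20. It shifts each array by its own amount, so the spread within a line changes as well. Apart from these shifts and the lower number of arrays in some fits, the cause of the changes was not tested. The 3 arrays a line limit the precision, and signal over background is unknown, so values near or under the array median (*HSPB3*, *HSPB8*, *HSF5* and *HSPA6*) say little.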
